A study of Homo sapiens with 21 samples.

Results

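The HLA class I antigen presentation genes described here are HLA-B, HLA-C, HLA-E, HLA-F, B2M, TAP1, TAP2, TAPBP and NLRC5. They were taken by gene symbol from the raw counts of 21 tumors, and all 9 were found among the 60651 genes counted. HLA-B and HLA-C encode classical class I heavy chains, and HLA-E and HLA-F encode non-classical heavy chains. B2M encodes the light chain, β2-microglobulin. TAP1 and TAP2 form the peptide transporter, TAPBP encodes tapasin, and NLRC5 encodes the class I transactivator.

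The tumors were subcutaneous xenografts of A549-Luc2 cells, a human lung adenocarcinoma line, mixed with Matrigel and injected into the hind flank of female athymic nu/nu mice aged 6 to 8 weeks. The 7 control tumors came from mice given the formulation alone, which was based on corn oil and held DMSO, ethanol and PEG400. Oxy186 or Oxy210, synthetic oxysterols dissolved in that formulation, was given by daily oral gavage at 50 mg/kg to the mice that bore the other 14 tumors, 7 for each compound. All 3 groups thus shared the cell line, the host and the vehicle. Athymic mice lack mature T cells, which limits them as a model of antigen presentation, and the stroma, vessels and remaining immune cells of these tumors are of mouse origin. The authors counted reads on human genes only. Labels number the tumors of a group from r1 to r7 and do not tie them to mice. P-values here set differences between groups against the spread between these tumors.

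Class I molecules show peptides from proteins made inside a cell to CD8 T cells and to receptors of natural killer cells. Proteasomes cut proteins into peptides, the TAP transporter carries these into the endoplasmic reticulum, and tapasin holds the empty heavy chain and light chain dimer close to TAP until a peptide is bound. Interferons raise the transcription of most of these genes, and NLRC5 acts on class I promoters together with the RFX complex, CREB family proteins and NF-Y.

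Promoters of 7 of the 9 genes were found in RefSeq's GRCh38.p14 table. HLA-E and NLRC5 had none. The 250 bases before each start were searched on both strands for 3 motifs: the core of the interferon-stimulated response element (ISRE), which is GAAA, any 2 bases and GAAA, the CRE core TGACG, and the CCAAT box bound by NF-Y. ISRE cores can overlap one another. In all 35116 promoters of the table, 3.02% held the ISRE core, 21.2% the CRE core, 32% the CCAAT box and 0.177% all 3. The stretches that hold the motifs are shown 5′ to 3′ on the strand of the gene, with capitals marking the matches. Whether the motifs go with the levels or differences given below was not tested. Bases in exons of coding transcripts were left out, or kept to a piece of 30 bases. The stretches are chr6:31357256-31357285 for HLA-B (minus strand), chr6:31272106-31272292 for HLA-C (minus strand), chr6:29723234-29723305 for HLA-F (plus strand), chr15:44711324-44711508 for B2M (plus strand), chr6:32853817-32853904 for TAP1 (minus strand), chr6:32838768-32838797 for TAP2 (minus strand) and chr6:33314079-33314108 for TAPBP (minus strand).
HLA-B: TGACGcgtccccacttcccactcccATTGG
HLA-C: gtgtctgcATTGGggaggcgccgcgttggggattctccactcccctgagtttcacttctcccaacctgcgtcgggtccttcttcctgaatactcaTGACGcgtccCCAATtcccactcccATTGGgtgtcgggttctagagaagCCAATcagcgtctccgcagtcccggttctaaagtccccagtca
HLA-F: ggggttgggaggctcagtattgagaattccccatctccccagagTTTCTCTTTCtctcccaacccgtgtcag
B2M: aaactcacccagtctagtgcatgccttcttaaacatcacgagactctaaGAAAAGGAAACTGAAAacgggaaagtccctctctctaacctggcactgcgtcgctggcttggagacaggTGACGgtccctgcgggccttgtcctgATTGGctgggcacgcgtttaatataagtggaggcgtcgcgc
TAP1: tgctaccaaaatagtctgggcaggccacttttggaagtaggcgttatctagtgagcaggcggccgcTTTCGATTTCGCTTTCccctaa
TAP2: GAAAGCGAAAgctgcccgagcccTGACGcc
TAPBP: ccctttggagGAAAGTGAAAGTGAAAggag

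B2M was the member whose promoter held all 3 motifs, with a pair of overlapping ISRE cores from 144 to 129 bases before the start, the CRE core from 75 to 71 and a CCAAT box from 49 to 45. HLA-B and HLA-C shared a layout, with the CRE core ending 102 and 101 bases before the start and CCAAT boxes in both orientations between it and the start, and neither held the ISRE core as spelled here. HLA-F held an ISRE core and a pair of CCAAT boxes and no CRE core. TAP1 held a pair of overlapping ISRE cores and a CCAAT box farther upstream, and a second TAP1 promoter in the table held none of the motifs. TAP2 held an ISRE core and a CRE core, and TAPBP a pair of overlapping ISRE cores. A match says only that the letters are present in this window.

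Of the 9 genes, 7 lie in the major histocompatibility complex on chromosome 6 of GRCh38 (positions from GENCODE 44). On the minus strand are HLA-C from 31268749 to 31272130, HLA-B from 31353872 to 31367067, TAP2 from 32821833 to 32838739, TAP1 from 32845209 to 32853816 and TAPBP from 33299694 to 33314284. On the plus strand are HLA-F from 29722775 to 29738528 and HLA-E from 30489509 to 30494194. B2M lies on chromosome 15 from 44711358 to 44718851 and NLRC5 on chromosome 16 from 56989485 to 57083531, both on the plus strand. Counts covered whole genes, with all exons of a gene pooled.

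Class I heavy chain genes resemble one another, differ between people and were counted from uniquely mapped reads on reference alleles, so their levels are uncertain. Whether reads were counted by strand is not given in the sources used here, so reads cannot be told apart from those of overlapping genes. Other genes on the same strand overlap 32.7% of the exon bases of HLA-B (DHFRP2 and MIR6891) and 19.5% of those of TAP2 (a readthrough gene). Genes on the opposite strand overlap 28% of HLA-F, 21% of TAPBP, 14.8% of HLA-B and 14.2% of TAP1. B2M, HLA-C, HLA-E and NLRC5 have no such overlap in this annotation.

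Between 13787493 and 17865119 reads per tumor were counted on human genes, and no tumors of a group agreed within sampling noise. Markers of A549 epithelial cells were high in every tumor, with 51847 to 127913 counts for KRT8 and 30308 to 73819 for KRT18. Of 8 human leukocyte markers, CD3E had 0 or 1 count and PTPRC had 0 to 8. CD14 had the most, 6 to 60, and CD8A and FCER1G had 1 to 15 and 0 to 14. The summed leukocyte markers came to between 1.41 and 5.78 CPM (counts scaled to library size) in the control group, 1.76 and 4.15 in the Oxy186 group and 1.90 and 3.38 in the Oxy210 group. Libraries differed in their trend with GC content. The GC slope, which is the change of log2 CPM per 10 percentage points of exon GC relative to the mean of all libraries, lay between -0.15 and 0.40 for control tumors, between -0.33 and 0.26 for Oxy210, between -0.51 and -0.18 for Oxy186-treated samples r1-r4 and between 0.079 and 0.49 for r5-r7. Control sample r6 stood below the other control samples for HLA-B and B2M. Differences, and correlations over all tumors among members, that rest on it are also given without it. Correlations within a single group are not.

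In the control group, B2M had the highest level per exon length, 121 ± 19.6 CPM per kb (SD, n = 7), and NLRC5 the lowest, 0.686 ± 0.146. Among the heavy chains, HLA-E stood at 56.6 ± 12.4 CPM per kb and HLA-C at 35.7 ± 7.81, with overlapping ranges of 37.1 to 71.2 and 23.0 to 45.8. HLA-B stood at 5.60 ± 1.59 CPM per kb and HLA-F at 0.897 ± 0.306. HLA-C was therefore measured well above HLA-B in every control tumor, the lowest HLA-C value of 23.0 against the highest HLA-B value of 6.89. The limits on allele mapping given above apply. The size of this gap also depends on the exon lengths used, 4623 bases for HLA-B and 2507 for HLA-C. Counts not divided by length ran from 859 to 1883 for HLA-C and from 167 to 562 for HLA-B.

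Of the loading machinery, TAPBP stood at 16.9 ± 2.93 CPM per kb, TAP1 at 3.77 ± 0.555 and TAP2 at 0.957 ± 0.121. The exon lengths used here, 10357 bases for TAP2 and 4738 for TAP1, join all isoforms in the annotation. In the order B2M, HLA-E, HLA-C, TAPBP, HLA-B, TAP1, TAP2, HLA-F and NLRC5, the control ranges of neighbours did not overlap between B2M and HLA-E, HLA-C and TAPBP, TAPBP and HLA-B, or TAP1 and TAP2. HLA-E and HLA-C overlapped, as did HLA-B and TAP1, TAP2 and HLA-F, and HLA-F and NLRC5.

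**Figure D1:**
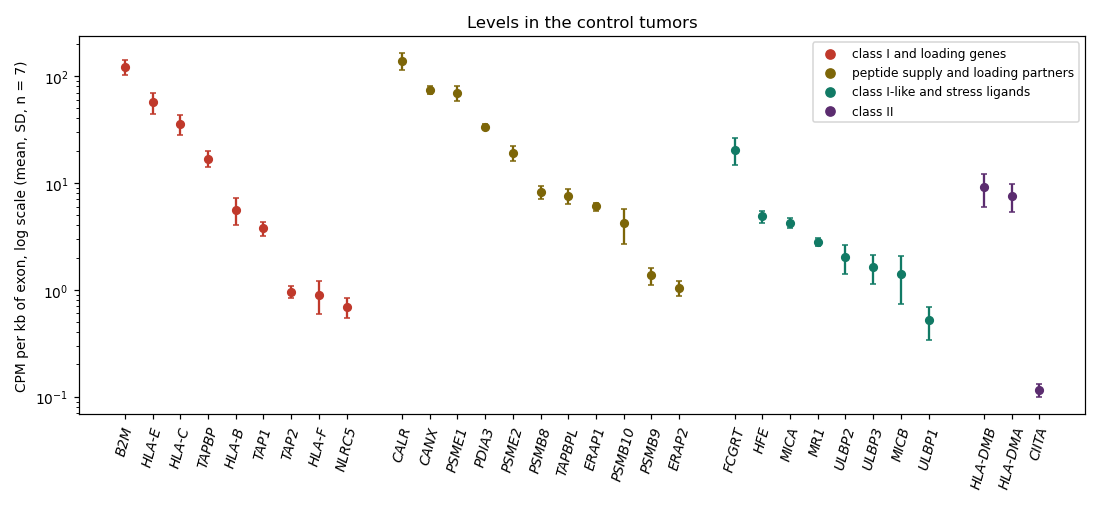
Mean level per exon length with SD over the 7 control tumors, on a log scale in CPM per kb, for the 9 class I and loading genes, their peptide supply and loading partners, class I-like and stress ligands, and class II genes, each shown where its median count over the 21 tumors was at least 10. B2M stands near 121 and NLRC5 near 0.686, and CALR and CANX, chaperones of the same pathway, stand at 139 and 74.1.

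Peptide supply genes differed among themselves in the control group. The PA28 activator subunits PSME1 and PSME2 stood at 69.6 ± 11 and 19.0 ± 3.00 CPM per kb, and the immunoproteasome subunits PSMB8, PSMB10 and PSMB9 at 8.26 ± 1.12, 4.18 ± 1.48 and 1.36 ± 0.251. The chaperones CALR and CANX stood at 139 ± 24.1 and 74.1 ± 6.67 CPM per kb. HLA-G, a non-classical heavy chain, had 0 to 2 counts in every tumor and 0 in 14 of them. The class II genes HLA-DRA and HLA-DPA1 had 0 to 2 and 0 to 4 counts, while HLA-DMB, a class II peptide exchange factor, stood at 9.08 ± 3.14 CPM per kb. The interferon-induced chemokines CXCL10 and CXCL9 had 0 or 1 count in each tumor.

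The 9 genes did not vary alike between tumors. Deviations from the group means had an SD of 0.18 in log2 CPM for TAP2, below the median SD of 0.34 for 1780 genes within 0.5 log2 CPM of it and at percentile 3.31 of them. HLA-F and HLA-B varied most, with SDs of 0.53 and 0.46 at percentiles 71.8 and 82.7 of genes of like level. For B2M the SD was 0.34 (percentile 77.5), for TAPBP 0.33 (percentile 74.7) and for HLA-E 0.24 (percentile 49.1).

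The heavy chain genes varied together from tumor to tumor. Over the 21 tumors, with group means removed, Pearson's r ranged from 0.666 to 0.809 over their 6 pairs (median 0.757). HLA-C and HLA-E had the highest r of these, 0.809. Without control sample r6 the 6 pairs ranged from 0.563 to 0.754 (median 0.682). These correlations describe tumors that share libraries across genes, with reads of similar sequence, and no p is given. The 4 pairs of a heavy chain with B2M, given below, ran from 0.0742 to 0.459 (median 0.163). The remaining 18 pairs without TAP2 were looser than the heavy chain pairs, between -0.493 and 0.742 (median 0.426). The 8 pairs with TAP2 ran from -0.293 to 0.265.

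B2M, the partner of every heavy chain, followed them weakly on log2 CPM, with r of 0.459 for HLA-B, 0.229 for HLA-F, 0.0976 for HLA-C and 0.0742 for HLA-E. Without control sample r6 the value for HLA-B was 0.300 and those of the other 3 lay between -0.207 and 0.0647. The GC contents of their exons differ, being 41.4% in B2M and between 51.5% and 60.9% in the heavy chain genes. When each library's GC trend was removed, r with B2M was 0.819 for HLA-B, 0.829 for HLA-C, 0.774 for HLA-E and 0.598 for HLA-F. Heavy chain pairs then ran from 0.299 to 0.745 (median 0.676), with both lowest values in pairs of HLA-F. Without control sample r6, r with B2M on that scale was 0.738 for HLA-B, 0.823 for HLA-C, 0.693 for HLA-E and 0.472 for HLA-F, and heavy chain pairs ran from 0.106 to 0.709 (median 0.601).

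**Figure D2:**
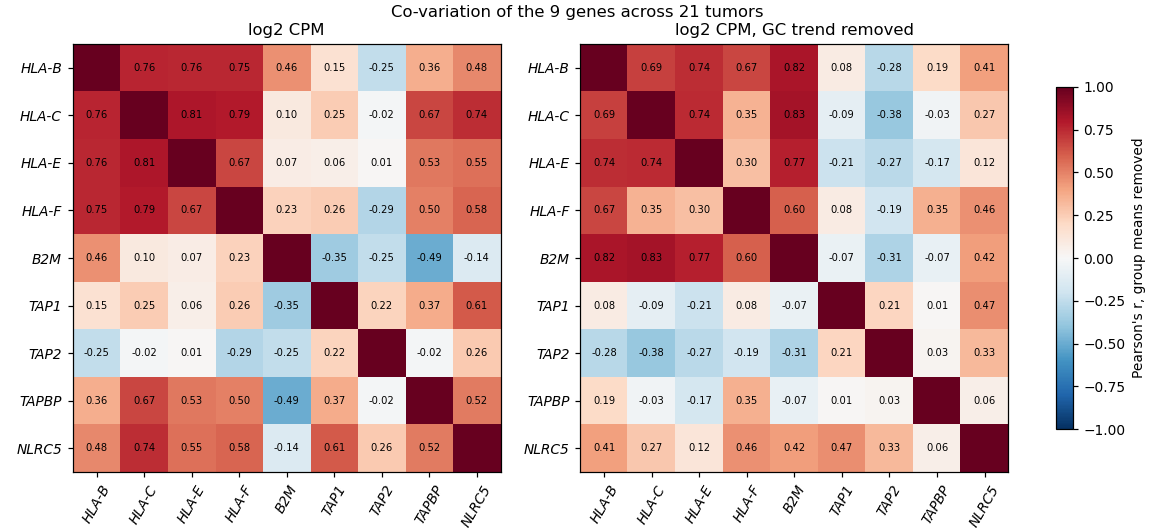
Pearson's r between each pair of the 9 genes over 21 tumors with group means removed, on log2 CPM (left) and after removal of each library's GC trend (right), with the value in each cell. The block of heavy chain genes is positive in both panels, and the B2M row changes from at most 0.459 to between 0.598 and 0.829 with the heavy chains.

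TAP1 followed HLA-C and NLRC5 differently from group to group on log2 CPM. In the control group r of TAP1 was -0.947 with HLA-C and -0.818 with NLRC5 (n = 7), and in the Oxy186 and Oxy210 groups it was 0.524 and 0.750 with HLA-C and 0.917 and 0.681 with NLRC5. These pairs were not alone. On the same scale r of TAP1 with HLA-B, HLA-E, HLA-F and TAPBP was -0.743, -0.800, -0.763 and -0.808 in the control group. It was above 0 with each of them in both other groups. With GC trends removed, r of TAP1 with HLA-C was -0.256 in the control group, -0.208 in the Oxy186 group and 0.660 in the Oxy210 group, and with NLRC5 it was -0.288, 0.838 and 0.567. The difference between groups was not tested. NLRC5 followed HLA-C with r of 0.742 on log2 CPM and 0.271 with GC trends removed.

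Other genes of the pathway were set beside the members in the same way, and those named here had the highest r among the listed genes and were chosen after their values were seen. STAT2, a signal transducer of type I interferon, had r of 0.782 with HLA-B, 0.720 with HLA-C and 0.681 with HLA-F. With GC trends removed, GBP2, an interferon-induced GTPase, had r of 0.826 with HLA-B and 0.778 with HLA-E. PSMB9 had r of 0.652 with HLA-F and 0.655 with HLA-C on log2 CPM, and 0.638 and 0.166 with GC trends removed. STAT2 and GBP2 are given on a single scale each, and their r on the other scale is not given here. All of these r include control sample r6.

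Among 13596 genes outside the HLA family, the closest to the mean of the centered members over the 21 tumors were MMP17, a membrane-type matrix metalloproteinase, with Pearson's r of 0.867, YPEL3 with 0.861, GTPBP2 with 0.842, SHC2 with 0.842 and BAIAP3 with 0.833. After removal of GC trends MMP17 came first again, with r of 0.842, followed by C4orf47 with 0.828, SYNE1 with 0.821, SMPDL3A with 0.817 and BAIAP3 with 0.791. MMP17 has an exon GC content of 66.2% and C4orf47 one of 41.9%. Group means were not removed in this ranking.

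Levels of the members in the 3 groups overlapped for every gene. HLA-B ran from 3.50 to 5.00 in log2 CPM (median 4.91) in control tumors, from 3.84 to 5.28 (median 4.20) with Oxy186 and from 3.65 to 4.48 (median 4.27) with Oxy210. Control sample r6 lay below the whole Oxy210 range for HLA-B, and the other 6 control samples lay above it. HLA-E ran from 6.76 to 7.70 (median 7.42) in control tumors, from 6.82 to 7.60 (median 7.13) with Oxy186 and from 6.92 to 7.29 (median 7.05) with Oxy210. HLA-E spread less in the Oxy210 group than in the control group, with SDs of 0.13 and 0.34, a difference that was not tested. With GC trends removed these SDs were 0.20 and 0.26. The lowest control value of HLA-E, 6.76, was that of r6.

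B2M ran from 7.98 to 8.75 in log2 CPM (median 8.65) in control tumors, from 8.11 to 9.32 (median 8.83) with Oxy186 and from 8.10 to 8.81 (median 8.24) with Oxy210. TAPBP ran from 6.34 to 7.12 (median 6.77), from 5.66 to 7.05 (median 6.49) and from 6.06 to 7.21 (median 6.62) in the same order. NLRC5 ran from 2.7 to 3.56 (median 3.00), from 2.10 to 3.39 (median 3.12) and from 2.28 to 3.70 (median 2.88). The Oxy186 group reached above the control range for B2M, HLA-B, HLA-F and TAP2. It reached below that range for TAPBP, NLRC5 and TAP1, and barely for HLA-C (5.847 against 5.850). The Oxy210 group reached below the control range for the same 4 genes, and above it for B2M, TAPBP, NLRC5 and TAP2. The lowest TAP1 values were 3.24 in the Oxy186 group, 3.70 in the Oxy210 group and 3.89 in the control group. HLA-C ran from 5.63 to 6.84, HLA-F from 0.96 to 3.08 and TAP2 from 3.04 to 3.66 over all 21 tumors.

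**Figure D3:**
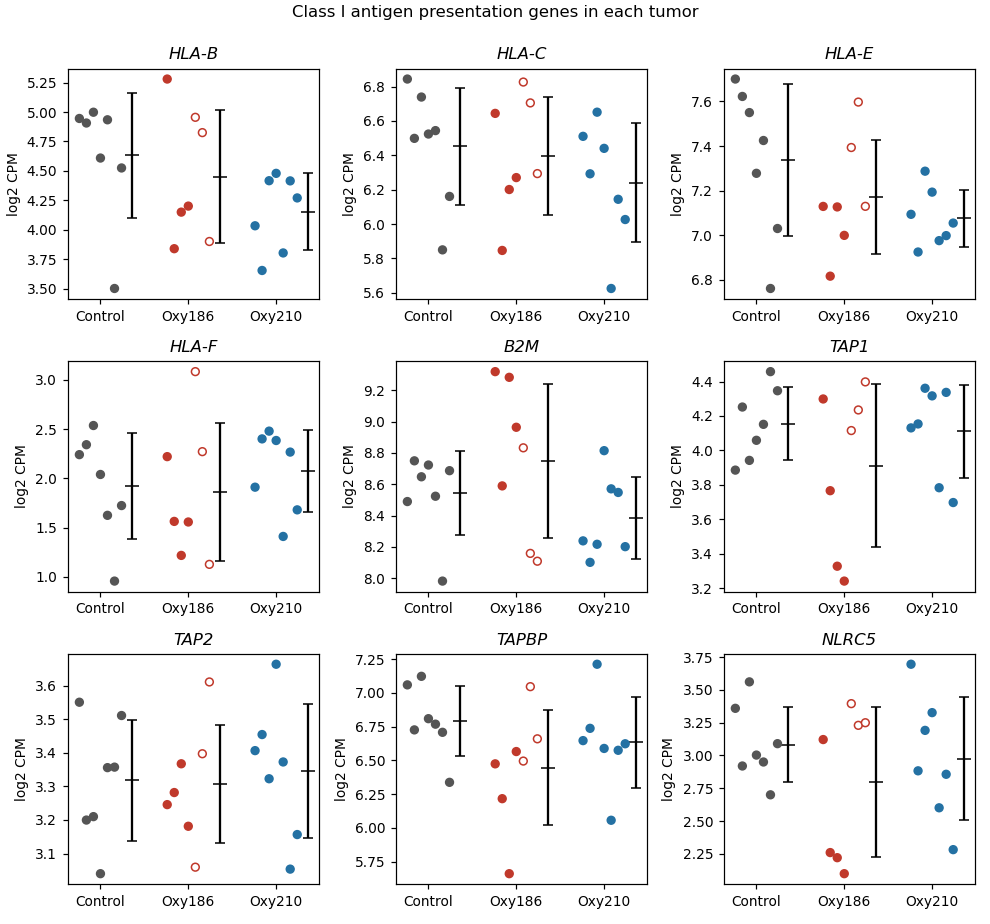
Log2 CPM of the 9 genes in each of the 21 tumors by group, with r1 to r7 from left to right, the mean as a dash and SD as a bar (n = 7), and Oxy186-treated samples r5-r7 as open circles. The groups overlap in every panel, and 3 of the 4 filled Oxy186 points for NLRC5 and for TAP1 lie below every control point.

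The first comparison asks whether tumors of mice given Oxy186 differed from control tumors in class I presentation. None of the 9 genes passed with all 7 Oxy186-treated samples, at a threshold of 0.05 for the Benjamini-Hochberg adjusted p in edgeR's quasi-likelihood test, and 0% of the 16291 genes tested passed in either direction. An unadjusted p under 0.05 was reached by 618 genes and 0 members, and limma voom and DESeq2 called 0 genes. Log2 fold changes were below 0 for 7 of the 9 genes, with a median of -0.17 against -0.01 over all genes. With GC offsets 5 of the 9 were below 0, with a median of -0.019 against 0.011. TAPBP had the smallest p of the members, at a log2 fold change of -0.33 (standard error 0.17, 95% interval -0.69 to 0.04, adjusted p = 0.862), and B2M stood at 0.24 (interval -0.16 to 0.64). In bulk tumors, fewer cells of a type and less RNA per cell cannot be told apart.

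Oxy210-treated samples were compared with the same control tumors, so both comparisons share those libraries. None of the 9 genes passed here either, and 0% of 16396 genes did in either direction by edgeR's quasi-likelihood test. An unadjusted p under 0.05 was reached by 2270 genes, among them 2 members, HLA-B and HLA-E. HLA-B stood at a log2 fold change of -0.50 (standard error 0.19, 95% interval -0.91 to -0.09, adjusted p = 0.301) and HLA-E at -0.27 (standard error 0.13, interval -0.53 to -0.0039, adjusted p = 0.351). Without control sample r6 the value for HLA-B was -0.63 (adjusted p = 0.0813), and with GC offsets it was -0.40 (adjusted p = 0.342). HLA-E stood at -0.11 with GC offsets (unadjusted p = 0.340, adjusted p = 0.681). DESeq2 called 71 genes lower and 21 higher, none of them a member, and limma voom called 0. The other 7 members had log2 fold changes between -0.19 for HLA-C and 0.14 for HLA-F.

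Oxy186 and Oxy210 were given at the same dose and schedule, and this was the only pair of compounds to compare. No member passed between them and 0% of 16361 genes did in either direction by edgeR's quasi-likelihood test, with 664 genes and 0 members at an unadjusted p under 0.05. B2M was nearest to the threshold, at a log2 fold change of 0.40 in Oxy186-treated against Oxy210-treated samples (95% interval -0.0072 to 0.81, adjusted p = 1.00). HLA-B stood at 0.36 with an interval from -0.12 to 0.83, HLA-F at -0.11 with one from -0.74 to 0.51, and TAP2 at -0.06 with one from -0.35 to 0.23. Intervals of the other 5 members also included 0, which does not show that the compounds act alike. DESeq2 called 3 genes and no member, limma voom called 0 genes, and with GC offsets 0.00611% of genes were higher, again without a member. In that fit B2M stood at 0.37 (95% interval 0.08 to 0.67, adjusted p = 0.530) and HLA-C at 0.37 (interval 0.0014 to 0.74, adjusted p = 0.614), so neither passed.

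The study's authors set aside Oxy186-treated samples r5-r7 after a principal component plot of these libraries, and compared r1-r4 with the control group. That choice was made on these data, so p-values of the subset describe the chosen libraries and are no independent test of Oxy186. In r1-r4, TAPBP was lower and B2M higher than in the control group, and the other 7 genes did not pass. At an adjusted p at or under 0.05 the test called 15.0% of 16852 genes lower and 4.73% higher, so 1 of 9 members lower and 1 of 9 higher stands beside that background. With the study's further limit of a fold change over 2, no member passed, and 8.14% of genes were lower and 0.214% higher.

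B2M had log2 CPM of 9.32, 8.59, 9.28 and 8.96 in r1 to r4, and 3 of these lay above the highest control value of 8.75. The log2 fold change was 0.50, with a standard error of 0.17 and an adjusted p of 0.0464. TAPBP had 6.47, 6.22, 5.66 and 6.57, of which 2 lay below the lowest control value of 6.34, and the log2 fold change was -0.54, with a standard error of 0.18 and an adjusted p of 0.0428. In r1-r4 the estimates for light chain and tapasin mRNA thus had opposite signs, and with GC offsets neither passed, as given below. B2M did not pass without r1, r3, r4 or control sample r6 (adjusted p of 0.127, 0.142, 0.0615 and 0.0549), and TAPBP did not pass without r2, r3 or r4 (0.0847, 0.142 and 0.0520). B2M also missed the threshold with limma voom and without the filter on low counts (0.0571 and 0.0587), and TAPBP with RLE and library size scaling (0.0507 and 0.0890).

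NLRC5 had log2 CPM of 3.12, 2.26, 2.22 and 2.10 in r1 to r4. The last 3 of these lay below the lowest control value of 2.7, and r1 lay within the control range. TAP1 showed the same order, with 4.30 in r1 and 3.77, 3.33 and 3.24 in r2 to r4, the latter 3 below the lowest control value of 3.89. Over r1-r4, NLRC5 stood at a log2 fold change of -0.64 (adjusted p = 0.0681) and TAP1 at one of -0.45 (adjusted p = 0.124). Without r1 both passed, NLRC5 at -0.94 (adjusted p = 0.0115) and TAP1 at -0.72 (adjusted p = 0.0185), and without control sample r6 NLRC5 passed at -0.69 (adjusted p = 0.0477) and HLA-E at -0.43 (adjusted p = 0.0450).

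Among the heavy chains, r1 also stood apart for HLA-B, at 5.28 against 3.84, 4.15 and 4.20 in r2 to r4 and at most 5.00 in the control group. Log2 fold changes over r1-r4 were -0.22 for HLA-B, -0.22 for HLA-C, -0.35 for HLA-E and -0.33 for HLA-F, with adjusted p between 0.149 and 0.611. TAP2 stood at -0.06 (95% interval -0.39 to 0.26). Summed leukocyte markers ran from 1.76 to 2.34 CPM in r1-r4, within the control range of 1.41 to 5.78, and summed stroma and vessel markers from 22.3 to 45.1 against 34.3 to 72.0. These sums rest on few counts for most markers, and the stroma and vessel sum mainly on COL1A1. Their part in the result was not tested.

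GC content moved with these results. Trends fitted to all genes gave, at the GC content of each gene, a difference between r1-r4 and the control group of -0.27 for TAPBP, -0.40 for NLRC5, -0.81 for HLA-C, -0.48 for HLA-E and 0.23 for B2M. With GC offsets in the fit, TAPBP was at -0.26 (adjusted p = 0.366), B2M at 0.26 (adjusted p = 0.408) and NLRC5 at -0.23 (adjusted p = 0.602). HLA-C passed as higher, at 0.63 (standard error 0.16, adjusted p = 0.0397), where 2.26% of genes were lower and 1.79% higher. With the limit of a fold change over 2 these shares were 0.854% and 0.344%, without a member. HLA-B and HLA-E also turned positive, at 0.07 and 0.15, and did not pass.

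With GC trends removed, HLA-C had log2 CPM of 7.13, 6.16, 7.02 and 7.05 in r1 to r4 against 5.81 to 6.40 in the control group (median 6.28), so r2 lay within the control range and the other 3 above it. HLA-C with GC offsets did not pass without r1, r3 or r4 (adjusted p of 0.0940, 0.105 and 0.132). The direction of HLA-B, HLA-C and HLA-E in r1-r4 thus depends on whether GC trends are removed, while B2M stayed above 0 and TAP1, TAPBP and NLRC5 below 0 in both fits.

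**Figure D4:**
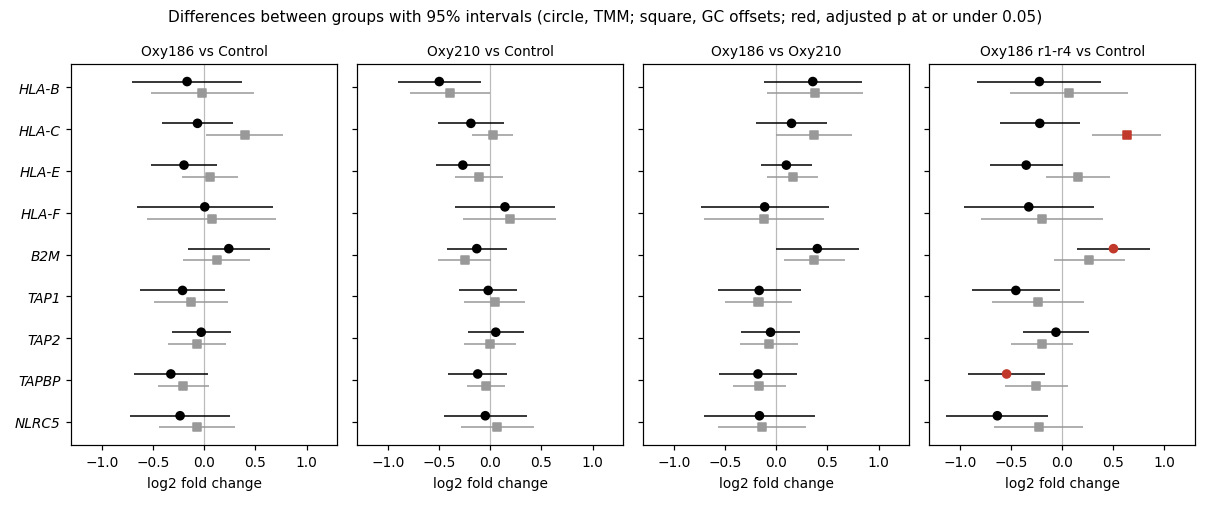
Log2 fold changes with 95% intervals for the 9 genes in the 4 comparisons, from the fit without GC offsets (circles) and with them (squares), with red for an adjusted p at or under 0.05. Red marks stand in the r1-r4 panel alone, at 0.50 for B2M and -0.54 for TAPBP without GC offsets and at 0.63 for HLA-C with them.

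The ratio of light to heavy chain mRNA, taken as the CPM per kb of B2M over the summed CPM per kb of the 4 heavy chain genes described here, lay between 0.924 and 1.67 in control tumors and between 0.960 and 1.84 with Oxy210. In r1 to r4 it was 2.11, 1.89, 2.45 and 2.02, each above every other tumor, and in r5 to r7 it was 1.31, 0.796 and 1.07. The sum holds these 4 genes and no other class I heavy chain gene, so it is not the whole of the heavy chain mRNA. Against the GC slope of the library, Pearson's r was -0.934 and Spearman's rho -0.933 over the 21 tumors, and r was -0.906 when the 2 tumors with the most extreme slopes, counted from the median, were left out. Over the 17 tumors other than r1-r4, r was -0.904. Both measures come from the same libraries, and no p is given. The ratio sets a gene of 41.4% exon GC over genes of 51.5% to 60.9%, so it is not independent of the GC slope. It was not computed with GC trends removed.

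**Figure D5:**
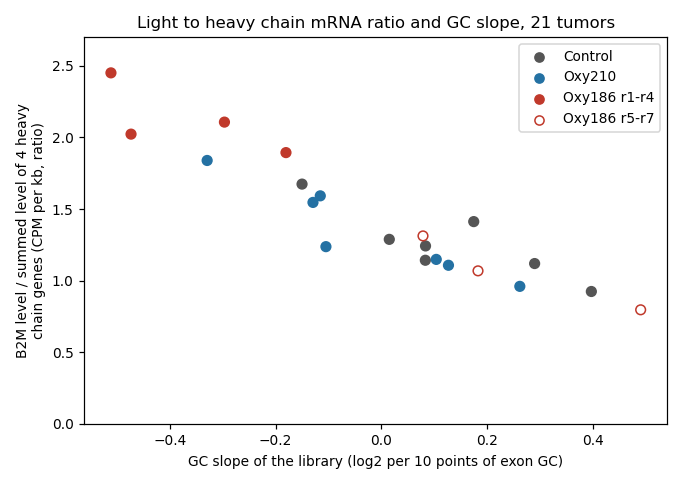
Ratio of the B2M level to the summed level of 4 heavy chain genes (CPM per kb) against the GC slope of the library (log2 CPM per 10 percentage points of exon GC) for 21 tumors. The points fall along a line from 2.45 in r3 of the Oxy186 group to 0.796 in r6, and the control and Oxy210-treated tumors lie on the same line.

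Genes around the class I pathway were counted by list. None of the tested genes of any list passed in the 3 comparisons of 7 against 7 tumors. Counts in r1-r4 stand beside the 15.0% of all genes that were lower and the 4.73% that were higher. There, 3 of 11 peptide supply and loading partners were lower and 0 higher. PSMB10 stood at a log2 fold change of -2.09 (adjusted p = 0.00118), TAPBPL, a tapasin-like protein that edits peptides, at -0.60 (adjusted p = 0.0390) and PSMB8 at -0.51 (adjusted p = 0.0411). The median of that list was 0.12, against 0.01 over all genes. With GC offsets PSMB10 was still lower, at -1.04 (adjusted p = 0.0299), and the chaperone CALR was higher, at 0.49 (adjusted p = 0.0348), while TAPBPL and PSMB8 did not pass, at -0.14 and -0.44 (adjusted p = 0.695 and 0.118).

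Of the class I-like and stress ligands, 1 of 8 tested was lower in r1-r4, against 15.0% of all genes. This was FCGRT, the heavy chain of the neonatal Fc receptor, which also pairs with B2M. Its log2 fold change was -1.39 (adjusted p = 0.00112), and -0.64 (adjusted p = 0.0143) with GC offsets. The ligands MICB and MR1 stood at -0.56 and 0.23 and did not pass. None of the 4 tested class II genes passed.

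Among 12 regulators of class I transcription, 1 was lower and 2 were higher in r1-r4, against 15.0% and 4.73% of all genes. RELA, an NF-κB subunit, stood at a log2 fold change of -1.03 (adjusted p = 0.00343), and the NF-Y subunits NFYB and NFYA, which bind the CCAAT box shown above, at 0.40 and 0.38 (adjusted p = 0.0350 and 0.0363). None of these passed with GC offsets. Of 11 interferon receptor and signalling genes, 3 were lower and 1 higher, led by SOCS3 at -1.11, TYK2 at -0.71 and SOCS1 at -1.67, and JAK1 was the gene that was higher, at 0.49. With GC offsets 0 of these 11 passed, and TYK2 and SOCS1 turned to 0.0026 and 0.044. The shares over all genes are again 15.0% lower and 4.73% higher.

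Interferon response genes had a median log2 fold change of 0.47 in Oxy186-treated and 0.50 in Oxy210-treated samples against the shared control group, over 9 tested genes, where all genes had medians of -0.01 and 0.01 and the 9 class I members -0.17 and -0.12. None passed. IFIT1, an interferon-induced RNA-binding protein, stood at 0.91 and 1.07 (adjusted p = 0.862 and 0.316), GBP1 at 0.68 and 0.55, and IFIT3 at 0.47 and 0.50. The list did not rise as a whole, since 3 of the 9 genes were below 0 in each comparison. Among these were IFI35 at -0.42 and -0.42 and OAS1 at -0.036 and -0.052. Median values with GC offsets were 0.45 and 0.40 for the interferon response genes and -0.019 and -0.00080 for the members. In r1-r4 the list was split, with IFI35 and ISG15 lower at -0.94 and -0.87 (adjusted p = 0.0192 and 0.0445) and GBP1 higher at 0.80 (adjusted p = 0.0481), and none of these passed with GC offsets, where ISG15 turned to 0.20.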

How the data were processed

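The authors trimmed reads with Trimmomatic 0.39, aligned them with STAR 2.7.6a to a combined human (GRCh38.p13) and mouse (GRCm39) genome and counted uniquely mapped reads per human gene with featureCounts of Subread 2.0.1. They deposited raw counts for all 21 tumors and log2 CPM, after filterByExpr and TMM normalization, for control and Oxy186-treated samples r1-r4. Log2 CPM recomputed with a prior count of 2 differed from the deposited log2 values by at most 4.97e-14.

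Counts were tested with edgeR 4.0.16 (quasi-likelihood, filterByExpr, TMM) in R 4.3.3 on all genes, with Benjamini-Hochberg adjustment, after tests on simulated data. The study itself used limma voom. The GC trend of a library is a spline (4 degrees of freedom) of its log2 CPM on exon GC, taken over genes whose mean log2 CPM was 1 or more, and it served as an offset or was subtracted. Exon GC, lengths and positions came from GENCODE 44, with a GC value for 99.8% of genes. CPM per kb is CPM divided by exon length. Alternatives were limma voom 3.58.1, DESeq2 1.42.0, RLE or library size scaling, no filter, a minimum of 10 counts per library, 1 fit of all 21 libraries, GC offsets, a replicate block and left-out libraries. Figures used matplotlib 3.10.9.

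Members and lists were chosen with earlier results of these data known. All 9 members are named, with up to 3 genes of smallest p per list and comparison, and the 5 genes closest to the members' mean, a ranking from which other HLA genes were left out.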

Additional observations from a re-analysis of the deposited data

Results flagged for a closer look

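Control sample r6 lay far below the other 6 control samples for 2 of the members. Its HLA-B level was 3.50 in log2 CPM, where the next lowest control sample had 4.53, and its B2M level was 7.98, where the next had 8.49. The gap to the nearest sample was 0.684 and 0.661 of the range of the group, above Dixon's critical value of 0.568 for 7 samples. Such gaps arise by chance in about 1 in 20 groups. There were 27 groups (9 genes in 3 groups), so 1.35 would be met by chance, and 2 were found, both in this tumor. HLA-B and B2M varied together in the control group (r = 0.812 on log2 CPM), so the 2 gaps cannot be counted as separate events. The same tumor was also the lowest control sample for HLA-C, HLA-E, HLA-F and NLRC5 and the highest for TAP1. Its total count of 14710738 and GC slope of 0.015 lay within the range of the other control samples. Its summed stroma and vessel markers, counted on human genes, came to 72.0 CPM, the highest of the 21 tumors. The other control samples had 34.3 to 52.9. Most of this sum is COL1A1, with 256 to 1031 counts per tumor against at most 58 for PECAM1 and fewer for the others. The sum therefore does not measure the mouse stroma, and its part in the low values was not tested.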

How the results depend on the processing

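None of the 9 genes passed in any comparison of 7 against 7 tumors under any alternative run, and the changes below for those comparisons are of direction or of counts over all genes. The cause of each change was not tested. With GC offsets, HLA-C and HLA-E turned positive in Oxy186-treated against control samples (0.40 and 0.051), as did HLA-C, NLRC5 and TAP1 in Oxy210-treated samples (0.024, 0.067 and 0.042), where TAP2 turned to -0.00080. In r1-r4 HLA-B, HLA-C and HLA-E turned to 0.066, 0.63 and 0.15, 381 genes were lower and 302 higher, 0 members were lower, and the 1 member that was higher was HLA-C in place of B2M. HLA-F in Oxy186-treated samples was -0.078 with limma voom and -0.0060 with no filter, and in Oxy210-treated samples NLRC5 and TAP1 were 0.010 and 0.024 under library size scaling.

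Over all genes, Oxy210-treated against control samples had 71 lower and 21 higher with DESeq2 and 11 lower with no filter. Between the compounds, 3 genes were higher in Oxy186-treated samples with DESeq2, and 1 with GC offsets, with 1 fit of all 21 libraries and with no filter. In r1-r4, where 797 genes were higher, DESeq2 called 1535, the fit of all 21 libraries 1323 and no filter 418. DESeq2 called 2 members lower there, TAPBP and NLRC5. RLE and library size scaling called 0 lower, and limma voom and no filter called 0 higher. Of the genes that passed in r1-r4, 76.0% were lower, and this was 65% with DESeq2, 55.8% with GC offsets and 86.3% with no filter, which also moved the median log2 fold change of all genes to -0.14.

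Tumors of the same number were not paired by the labels. Correlations of their deviations from the group means were -0.511 to 0.0302 between Oxy186-treated and control samples (0 of 7 over 0.1). They were -0.538 to 0.409 between Oxy210-treated and control samples (4 of 7 over 0.1) and -0.395 to 0.174 between the compounds (1 of 7). In these, 0 tumors correlated best with their own number, which does not exclude that tumors of the same number share more than it. With a replicate block, 2 genes were lower in Oxy210-treated samples, HLA-F was -0.090 in Oxy186-treated samples, and in r1-r4 TAP2 was 0.014, 272 genes were higher (88.5% of those that passed were lower), and 0 members were lower and 0 higher. The block with GC offsets gave 0.34, 0.052 and -0.018 for HLA-C, HLA-E and HLA-F in Oxy186-treated samples, and 0.026, 0.038, 0.057 and -0.0037 for HLA-C, NLRC5, TAP1 and TAP2 in Oxy210-treated samples. It left 1 gene higher between the compounds. In r1-r4 it gave 0.56 and 0.069 for HLA-C and HLA-E, 53 genes lower and 15 higher, and 0 members lower and 0 higher.

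Leaving out control sample r6, or 1 of r1-r4 at a time with GC offsets, was chosen after the data were seen. Over the fits that left out 1 tumor, with and without GC offsets, r1-r4 had 132 to 2681 genes lower, 130 to 1016 higher, 0 to 3 members lower and 0 to 1 higher. Log2 fold changes there ran from -0.64 to 0.25 for HLA-B, -0.37 to 0.81 for HLA-C, -0.43 to 0.27 for HLA-E and -0.23 to 0.012 for TAP2. Without control sample r6, HLA-C ran from -0.13 to 0.33 and HLA-F from -0.095 to -0.046 in Oxy186-treated samples. In Oxy210-treated samples NLRC5 ran from -0.11 to 0.023 and TAP1 from 0.034 to 0.11, and 0 to 55 genes were lower and 0 to 22 higher, the upper values being those with GC offsets. Depth limits HLA-F most, with 27 to 126 counts per tumor.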
